A study of Drosophila melanogaster with 4 samples.

Results

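The 8 genes kdn, mAcon1, Idh3a, Idh3b, Idh3g, Scsalpha1, Fum1 and Mdh2, which encode mitochondrial enzymes of the tricarboxylic acid cycle, were followed in fly gut RNA. They were chosen by their current FlyBase symbol, and 8 of 8 were found among the 13932 genes of the deposited table. The libraries came from guts of female fruit flies (Drosophila melanogaster) of the wild-type strain Oregon R-C, raised on a chemical diet. The diet had either no manganese added or 5 ppm manganese, and all flies shared strain, sex and tissue. Parents laid eggs for 5 days on each diet, and newly emerged daughters then spent 5 more days on a fresh supply of it. There were 2 libraries for each diet, here B and C as in the table's header, which does not say which letter is which numbered sample. The labels do not state whether a diet's libraries were prepared from different flies, so the p-values speak only of the spread among these libraries, which may be technical.

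The cycle takes up acetyl units in the mitochondrial matrix, oxidises them to carbon dioxide and passes the electrons to the respiratory chain as NADH and as reduced ubiquinone. Citrate synthase joins acetyl-CoA to oxaloacetate, aconitase turns citrate into isocitrate, and isocitrate dehydrogenase, succinyl-CoA synthetase, fumarase and malate dehydrogenase carry the carbon on to oxaloacetate again. The NAD-dependent isocitrate dehydrogenase is an oligomer of alpha, beta and gamma subunits and needs a divalent metal ion, magnesium or manganese. In the gut epithelium the cycle serves both energy supply and the export of citrate for fatty acid synthesis.

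Levels are in RPKM, reads scaled to gene length and to the library's total, so they can be compared between genes. The libraries had 24399759 to 28010953 reads, as recovered from the steps between low values. The 32 values of the 8 genes rested on about 2255 to 27224 reads each, which leaves a counting error of 0.606% to 2.11% of a value. The 9 marker genes of enterocytes, the absorptive cells of the gut, summed to 15823 and 16533 RPKM without manganese and 14530 and 13954 RPKM with it, 5 being higher and 4 lower. Of these, mex1 had 266 to 317 RPKM, while the protease gene Jon65Aiii had 3511 and 3964 RPKM without manganese and 2210 and 2026 RPKM with it. Amy-p had 1962 and 3531 RPKM without manganese and 2213 and 1614 RPKM with it. The 4 lower were Mal-A1, LManI, Myo31DF and nub. Mal-A1 had 7839 and 6780 RPKM without manganese and 7726 and 8218 RPKM with it. Akh, a hormone gene of the corpora cardiaca beside the foregut, had 5.07 and 5.03 RPKM without manganese and 0.153 and 0.799 RPKM with it. The part of the enterocyte genes or of Akh in the values below was not tested. The flight muscle genes Act88F, fln and TpnC4 had at most 0.269 RPKM in any library. The no-manganese library C stood apart: its 13 eggshell genes of ovarian follicle cells summed to 521 RPKM, against 0.531 to 4.02 RPKM in the other libraries. Most of that sum came from Vm26Aa, Vm26Ab, Vm34Ca, Vm32E and dec, at 35.3 to 210 RPKM there and at most 0.436 RPKM in the others. The eggshell genes whose symbols begin with Cp had at most 1.94 RPKM in any library, and Cp16 was at 0 in the no-manganese library C. The 5 germline genes, osk, yl, vas, bcd and grk, summed to 29.4 RPKM there and to 1.02 to 2.54 RPKM elsewhere. The 3 yolk protein genes, made by fat body and follicle cells, summed to 805 RPKM there and to 197 to 452 RPKM in the others. The other 6 fat body genes did not set it apart as a sum, at 104 RPKM against 105 RPKM in the 5 ppm library C, 91.1 RPKM in the no-manganese library B and 45.9 RPKM in the 5 ppm library B. That sum hides unlike members. Cyp4g1 had 1.49 and 36.0 RPKM in libraries B and C without manganese and 5.13 and 37.9 RPKM with it. Fad2 had 0.146 and 3.88 RPKM, and 0.469 and 3.67 RPKM. The gene to went the other way without manganese, at 64.3 and 36.2 RPKM. The part of these ovary, fat body and tubule genes in the values below was not tested.

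All 8 genes were expressed at a moderate to high level and had higher means without manganese, by 1.09-fold to 1.21-fold, but none passed the test. With limma on log2(RPKM + 1) over 7556 tested genes, the adjusted p-values of the 8 genes ran from 0.80 to 0.91. The same fit called 0 genes of the whole table at an adjusted p under 0.05 (0% in either direction), with 441 genes at an unadjusted p under 0.05. At that unadjusted level 0 of the 8 genes passed, where 5.84% of all tested genes did. The median log2 fold change (no manganese minus 5 ppm) of the 8 genes was 0.20, beside 0.02 for all tested genes. A mean above 0 was found for 8 of 8 cycle genes and for 56.4% of all tested genes. In 5 of the 8, both no-manganese libraries lay above both 5 ppm libraries, as they did in 21.7% of all tested genes. The opposite order, both below, held for 0 of the 8 and for 15.2% of all tested genes.

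**Figure D1:**
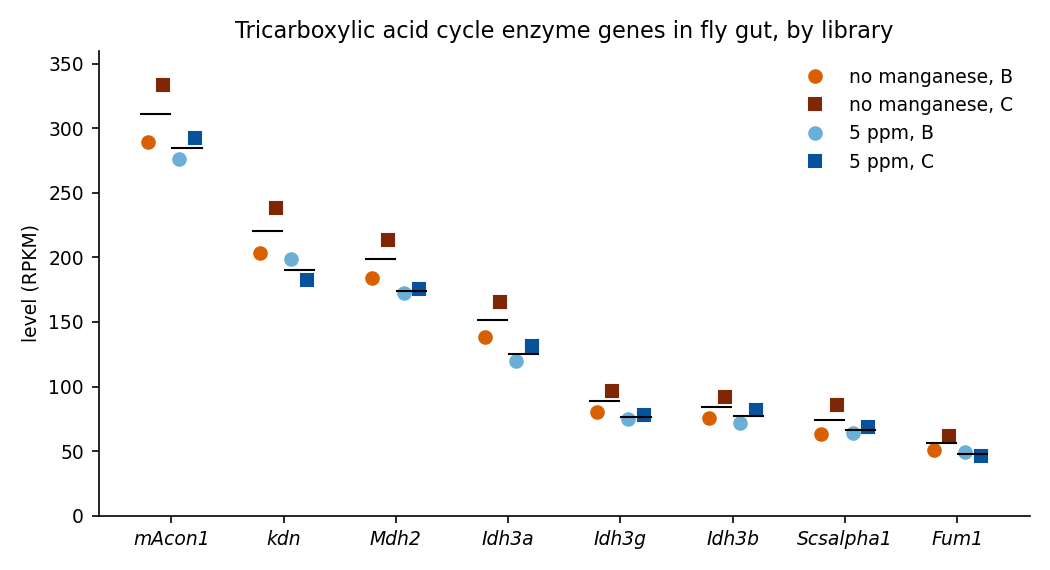
Level in RPKM (vertical axis, linear from 0) of the 8 cycle genes, ordered by mean; circles are library B, squares library C, warm colours no manganese, blue 5 ppm, and bars the mean of each diet. The no-manganese library C is the highest point for every gene, at 333 RPKM for mAcon1 and 61.7 RPKM for Fum1.

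The entry of carbon into the cycle depends on kdn and mAcon1, which were the most abundant of the 8 transcripts. kdn (FBgn0261955) encodes citrate synthase and is a protein-coding gene of 2836 exon bases on the plus strand of chromosome X, from 6350629 to 6361323 in dm6. Without manganese it had 203 RPKM in library B and 238 RPKM in library C, and with 5 ppm 199 and 182 RPKM in the same order, which is used for all genes below. The diets did not overlap, but the lower no-manganese value was close to the higher 5 ppm value. Its log2 fold change was 0.21 ± 0.13 SE (95% interval -0.14 to 0.56; limma, adjusted p = 0.82). mAcon1 (FBgn0010100), on the plus strand of chromosome 2L (21168570 to 21173185), encodes the mitochondrial aconitase, an iron-sulfur enzyme. It had 289 and 333 RPKM without manganese and 276 and 293 RPKM with it. Here the diets overlapped, since the 5 ppm library C lay above the no-manganese library B. The log2 fold change was 0.13 ± 0.13 SE (95% interval -0.22 to 0.47; limma, adjusted p = 0.88). mAcon1 ranked 347 and kdn 439 by mean RPKM among the 7556 tested genes.

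The isocitrate dehydrogenase subunits were not equally abundant, the catalytic alpha subunit being the highest. Idh3a (FBgn0027291; X from 19518428 to 19521810, minus strand) encodes that subunit. It had 138 and 165 RPKM without manganese and 119 and 132 RPKM with it. The diets did not overlap, and 0.27 ± 0.14 SE was the largest log2 fold change among the 8 genes (95% interval -0.10 to 0.63; limma, adjusted p = 0.80). Idh3b (FBgn0038922; 3R from 22016391 to 22019382, minus strand) encodes the beta subunit. It had 75.6 and 92.2 RPKM without manganese and 72.1 and 81.7 RPKM with it. Library C was above library B on both diets, and the diets overlapped. Its log2 fold change of 0.12 ± 0.15 SE was the smallest of the 8 (95% interval -0.26 to 0.50; limma, adjusted p = 0.91). Idh3g (FBgn0039358; 3R from 25680845 to 25683780, plus strand) encodes the gamma subunit. It had 80.3 and 96.6 RPKM without manganese and 74.7 and 78.1 RPKM with it, without overlap. The log2 fold change was 0.20 ± 0.13 SE (95% interval -0.14 to 0.55; limma, adjusted p = 0.82). Of its exon bases, 6.65% lie under RpL27, a ribosomal protein gene on the opposite strand, and whether reads were counted by strand is not known.

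Within each library, the ratio of beta to alpha subunit RNA was 0.548 and 0.558 without manganese and 0.604 and 0.620 with 5 ppm, without overlap between the diets. The means were 0.553 ± 0.00696 (SD, n = 2) and 0.612 ± 0.0119 (SD, n = 2). The ratio of gamma to alpha was 0.582 and 0.584 without manganese and 0.625 and 0.594 with it, also without overlap. Gamma and beta were near equal, at a ratio of 1.06 and 1.05 without manganese and 1.04 and 0.957 with it, again without overlap. A ratio within a library does not depend on the library's total. Such separation was not frequent among the 8 genes: of their 28 pairs, 7 had ratios that did not overlap between diets, a smaller share than the 36.1% of all pairs of tested genes. Of the 7 pairs, 4 included Idh3a. The pair of Idh3a and Idh3b had the largest difference of the 28, 0.15 on the log2 scale. With 2 libraries on each side, the smallest p of an exact permutation test is 0.333, and no other test was run on the ratios.

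**Figure D2:**
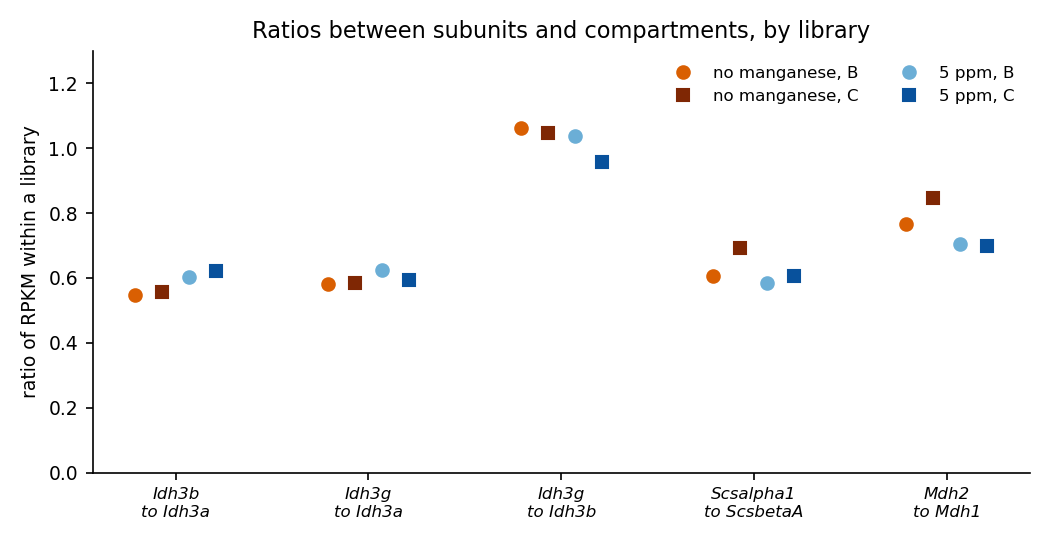
Ratio of RPKM between pairs of genes within a library (vertical axis, no unit), with symbols as for the levels by library. The ratio of Idh3b to Idh3a lies between 0.548 and 0.558 without manganese and between 0.604 and 0.620 with 5 ppm, and the ratio of Mdh2 to Mdh1 is higher in both no-manganese libraries. Of all pairs of tested genes, 36.1% have ratios that do not overlap between diets.

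The later steps were represented by Scsalpha1, Fum1 and Mdh2. Scsalpha1 (FBgn0004888; 3L from 3814211 to 3818383, plus strand) encodes the alpha subunit of succinyl-CoA synthetase, which is shared by the enzyme's ADP-forming and GDP-forming forms. It had 62.9 and 85.8 RPKM without manganese and 63.8 and 68.7 RPKM with it. The no-manganese library B was the lowest of the 4 and library C the highest, so the diets overlapped (log2 fold change 0.15 ± 0.18 SE, 95% interval -0.32 to 0.62; limma, adjusted p = 0.91). Fum1 (FBgn0286222; X from 6678424 to 6681845, plus strand) encodes fumarase, which hydrates fumarate to malate, and was the least abundant of the 8. It had 50.8 and 61.7 RPKM without manganese and 49.7 and 46.2 RPKM with it. The diets did not overlap, though the no-manganese library B was close to the 5 ppm library B (log2 fold change 0.22 ± 0.13 SE, 95% interval -0.13 to 0.57; limma, adjusted p = 0.82). Small parts of its exons are shared with Fum2 and ND-ASHI, 4.25% on the same strand and 4.14% on the opposite one. Mdh2 (FBgn0262559; 3R from 18226396 to 18228718, plus strand) encodes the mitochondrial malate dehydrogenase, which closes the cycle. It had 184 and 214 RPKM without manganese and 173 and 175 RPKM with it, without overlap. Its log2 fold change was 0.19 ± 0.12 SE (95% interval -0.14 to 0.52; limma, adjusted p = 0.82).

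By mean RPKM the order was mAcon1 (298), kdn (205), Mdh2 (186), Idh3a (139), Idh3g (82.4), Idh3b (80.4), Scsalpha1 (70.3) and Fum1 (52.1). The ranges over the 4 libraries did not overlap between mAcon1 and kdn, Mdh2 and Idh3a, Idh3a and Idh3g, or Scsalpha1 and Fum1. The ranges of kdn and Mdh2, of Idh3g and Idh3b, and of Idh3b and Scsalpha1 overlapped, although within each library kdn exceeded Mdh2 and Idh3b exceeded Scsalpha1. Idh3g exceeded Idh3b in 3 of the 4 libraries. Summed, the 8 genes had 1085 and 1287 RPKM without manganese and 1027 and 1057 RPKM with it, 0.175% to 0.226% of all RPKM in a library.

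Much of the difference between diets came from 1 library. The no-manganese library C was the highest of the 4 for 8 of 8 genes, as it was for 30.3% of all tested genes. Against the mean of the 5 ppm libraries, the median log2 difference of the 8 genes was 0.33 in the no-manganese library C and 0.08 in library B. Library C exceeded library B of the no-manganese diet by 0.20 (mAcon1) to 0.44 (Scsalpha1) on the log2 scale. In 7 of the 8 genes this gap between libraries of the same diet was larger than the difference between diets, the exception being Idh3a. Between the 5 ppm libraries the gap was smaller, 0.02 (Mdh2) to 0.18 (Idh3b) in size. Without the no-manganese library C, 6 of 8 genes were higher on the diet without manganese, with a median of 0.08, and Idh3b and Scsalpha1 were at -0.02 and -0.07. Without the no-manganese library B, 8 of 8 were higher, with a median of 0.33. The no-manganese library C also held the eggshell, germline and yolk protein RNA given above, and library B of that diet differed in Malpighian tubule genes. The part of either in these values was not tested. Fewer cells of a type and less RNA per cell cannot be told apart in bulk tissue.

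**Figure D3:**
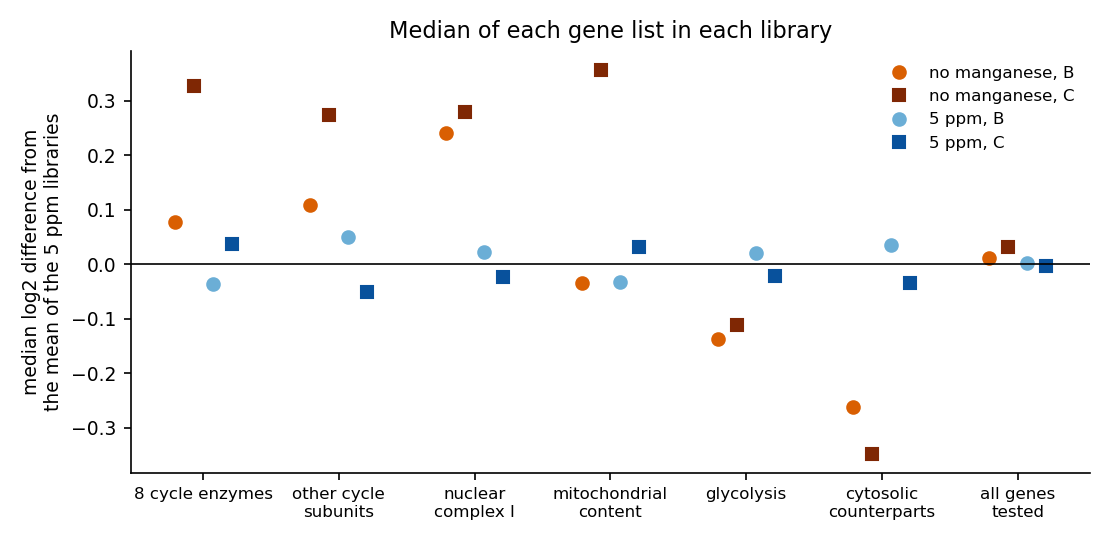
Median over each gene list of the log2(RPKM + 1) difference from the mean of the 5 ppm libraries (vertical axis), in each library, with symbols as for the levels by library. The 8 cycle genes lie at 0.33 in the no-manganese library C and 0.08 in library B, while the nuclear complex I genes lie at 0.28 and 0.24.

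The other subunits of the cycle gave a similar median but were led by succinate dehydrogenase, which oxidises succinate and hands its electrons to ubiquinone as complex II. Of 9 such genes tested, 8 were higher and 1 lower without manganese, where 56.4% of all tested genes were higher. The list had a median log2 fold change of 0.17, and 0 passed the test. That median was 0.27 without the no-manganese library B and 0.11 without library C of that diet. All 4 succinate dehydrogenase genes had both no-manganese libraries above both 5 ppm libraries, as 21.7% of all tested genes did. The opposite order held for 1 of the 9, Ogdh, and for 15.2% of all tested genes. Succinate dehydrogenase was not a list of its own fixed in advance. SdhD, a membrane anchor, had 71.4 and 69.4 RPKM without manganese and 59.8 and 50.0 RPKM with it (log2 fold change 0.36 ± 0.13 SE; limma, adjusted p = 0.80). SdhC, the other anchor, SdhA, the flavoprotein, and SdhB, the iron-sulfur subunit, had log2 fold changes of 0.29, 0.25 and 0.23. For SdhD and SdhC, library C of the no-manganese diet was slightly below library B, unlike for the 8 genes above. Opposite-strand neighbours share 10.6% of the exon bases of SdhB and 13.9% of those of SdhD. The subunits of the 2-oxoglutarate dehydrogenase complex lay on both sides of 0. Ogdh, its first enzyme, had 63.4 and 60.5 RPKM without manganese and 77.8 and 68.0 RPKM with it (-0.23 ± 0.11 SE; limma, adjusted p = 0.80). CG5214, the succinyltransferase, and CG7430, the dihydrolipoyl dehydrogenase shared with other complexes, were at 0.17 and 0.09. The partners of Scsalpha1, ScsbetaA and ScsbetaG, which make the enzyme specific for ADP and GDP, had log2 fold changes of 0.03 and 0.13. ScsbetaA was the more abundant, at 104 to 124 RPKM against 27.1 to 32.8 RPKM for ScsbetaG. Scsalpha1 stood at 0.586 to 0.692 of the ScsbetaA level over the 4 libraries.

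The genes that bring pyruvate into the matrix and turn it into acetyl-CoA showed little difference as a list. Of 7 tested, 5 were higher and 2 lower, where 56.4% of all tested genes were higher. None passed, and the median log2 fold change was 0.05. Its sign changed with the libraries used, at -0.07 without the no-manganese library C and -0.09 without the 5 ppm library B, and 0.10 and 0.18 without the others. Pdha, Pdhb and muc, the alpha and beta subunits of the first enzyme and the second enzyme of pyruvate dehydrogenase, were at 0.05, 0.10 and 0.19, with overlap between diets in each. Mpc1 and CG9399, of the mitochondrial pyruvate carrier family, were at -0.20 and 0.16. Pdk, the kinase that inactivates pyruvate dehydrogenase, was at -0.24, and Pdp, the phosphatase that reactivates it, at 0.05.

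**Figure D4:**
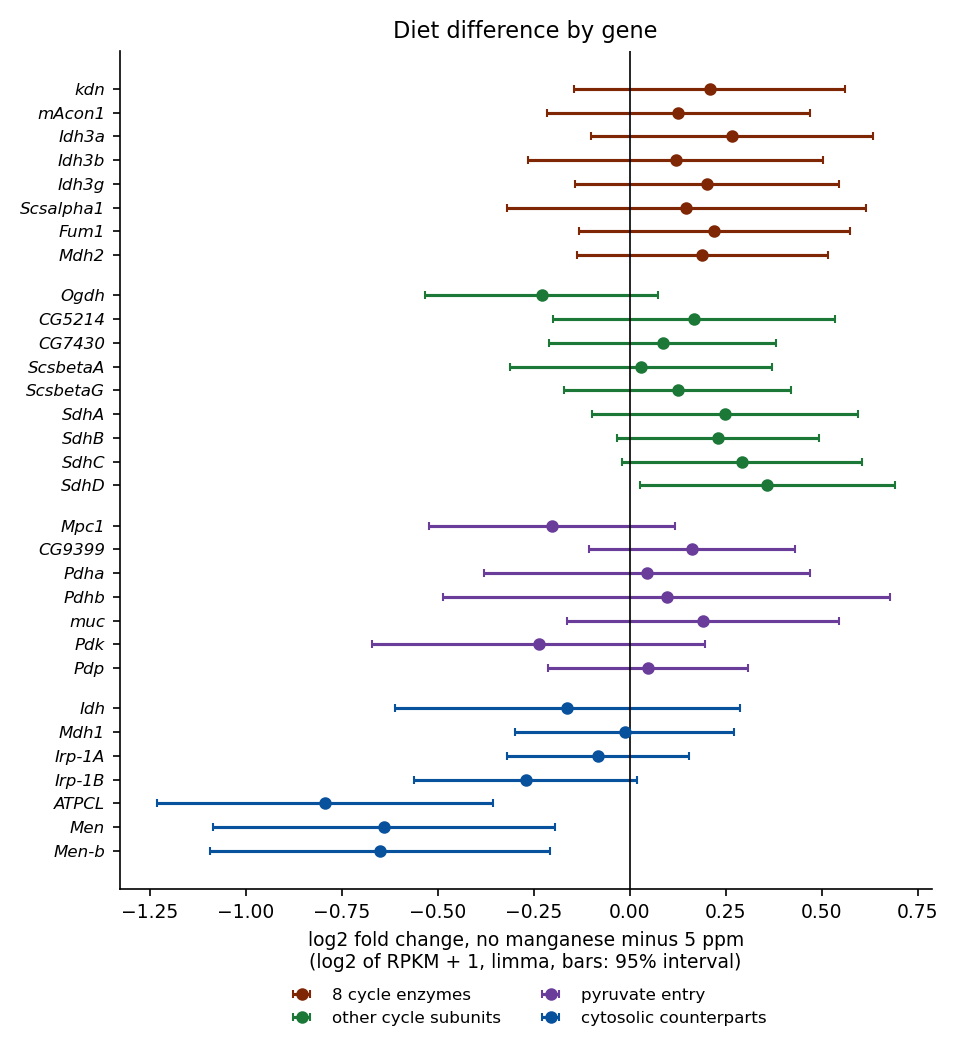
Log2 fold change of no manganese minus 5 ppm on log2(RPKM + 1) (horizontal axis) for the 8 cycle genes and 3 related gene lists; points are limma estimates and bars 95% intervals. The intervals of the 8 cycle genes include 0, and Idh3a has the largest estimate at 0.27.

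The 7 genes listed as cytosolic counterparts, whose enzymes use the same metabolites, lay on the opposite side of 0 from the 8 cycle genes. Where each enzyme resides in the cell was not checked, so the list may hold mitochondrial forms. Of 7 tested, 0 were higher and 7 lower without manganese, where 56.4% of all tested genes were higher. The list had a median log2 fold change of -0.27, and 0 passed the test. With 1 library left out the median stayed below 0, and it was smallest in size, -0.18, without the 5 ppm library B. In 5 of the 7, both no-manganese libraries lay below both 5 ppm libraries, as in 15.2% of all tested genes. The opposite order held for 0 of the 7, and for 21.7% of all tested genes. ATPCL, ATP citrate lyase, which splits exported citrate into acetyl-CoA and oxaloacetate, had 96.1 and 72.3 RPKM without manganese and 143 and 147 RPKM with it. Men and Men-b, malic enzymes that turn malate into pyruvate with NADPH as a product, had log2 fold changes of -0.64 and -0.65. These 3 of the 7 genes had an unadjusted limma p under 0.05, as 5.84% of all tested genes did in either direction. The limma adjusted p was 0.78 for ATPCL and 0.80 for both malic enzymes. The NADP-dependent isocitrate dehydrogenase Idh and the cytosolic malate dehydrogenase Mdh1 were at -0.16 and -0.01. Mdh1 was the more abundant of the malate dehydrogenases, and the ratio of Mdh2 to Mdh1 was 0.767 and 0.848 without manganese and 0.703 and 0.697 with it. Such a lack of overlap was found for 36.1% of all pairs of tested genes. Irp-1A and Irp-1B, of the aconitase family that includes the iron regulatory proteins, were at -0.08 and -0.27.

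Genes that refill the cycle or carry its intermediates across the inner membrane were also lower on average, 8 of 8 tested. A mean above 0 was found for 56.4% of all tested genes. The list had a median of -0.10 and 0 past the test. The median was -0.01 without the 5 ppm library B and -0.03 without the no-manganese library B, and it was -0.25 when library C of either diet was left out. The aminotransferases Got1 and Got2, which link oxaloacetate and 2-oxoglutarate to aspartate and glutamate, were at -0.25 and -0.37. In these 2 of the 8, both no-manganese libraries lay below both 5 ppm libraries, as in 15.2% of all tested genes. The opposite order held for 0 of the 8, and for 21.7% of all tested genes. Got2, the mitochondrial form, had 168 and 208 RPKM without manganese and 219 and 266 RPKM with it. PCB, pyruvate carboxylase, makes oxaloacetate in the matrix and was at -0.08. Gdh, glutamate dehydrogenase, was at -0.10. The carriers aralar1 (aspartate and glutamate), CG1907 (2-oxoglutarate and malate) and Dic1 (dicarboxylates) were at -0.10, -0.10 and -0.08, with overlap in each. Pepck2, a phosphoenolpyruvate carboxykinase, was highest in the 5 ppm library B at 34.4 RPKM and lay between 12.0 and 15.0 RPKM in the others. Pepck1 and the citrate carrier gene sea were below the level tested, and 100% and 85.2% of their exon bases are shared with another gene on the same strand, so their reads may have been left uncounted.

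Other copies of the cycle genes were near 0 in these guts. Of 14 second copies in the table, 1 had a mean of at least 1 RPKM, and 6 were listed at 0 in all 4 libraries; 3 reads in 1000 bases would be worth 0.107 to 0.123 RPKM. For CG33791, 1 of those 6, all exon bases are shared with other genes on the same strand, so its reads may have been left uncounted. The highest value of any of them in a library was 1.88 RPKM, for the isocitrate dehydrogenase-like gene CG32026. The lowest value of any of the 8 main genes was 46.2 RPKM, for Fum1. mAcon2, the second aconitase gene, had at most 0.0974 RPKM. CG32026 had 0.852 and 0.558 RPKM without manganese and 1.88 and 1.74 RPKM with it (log2 fold change -0.72 ± 0.16 SE; limma, adjusted p = 0.79).

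Nuclear genes of complex I, which takes electrons from the NADH that the cycle makes, had a larger median than the 8 cycle genes and a smaller gap between the no-manganese libraries; neither difference between the lists was tested. Of 33 tested genes whose symbol begins with ND-, 32 were higher and 1 lower, and 0 passed the test. Their median log2 fold change was 0.26, and 56.4% of all tested genes were higher. An unadjusted limma p under 0.05 was found for 13 of the 33, and for 5.84% of all tested genes. In 29, both no-manganese libraries lay above both 5 ppm libraries, as in 21.7% of all tested genes. The opposite order held for 1, and for 15.2% of all tested genes. The medians of the ND- genes were 0.28 in the no-manganese library C and 0.24 in library B. Fold changes ran with exon length across 7506 genes (Spearman's rho -0.27), with higher values in short genes; this is a correlation across genes, and genes are not replicates of each other. The complex I genes have a median exon length of 844 bases, and the 8 cycle genes span 1335 to 3103 bases around a median of 2082. With a smooth trend on exon length removed from each library, the 8 cycle genes kept a median of 0.15 and the complex I genes one of 0.18.

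By Euclidean distance of centred log2(RPKM + 1) values over the 4 libraries, the genes outside these lists closest to the mean of the 8 were Cypl, Myd88, Alp12, CG10116 and CG8204. Their distances ran from 0.020 for Cypl to 0.034 for CG8204, and those of the 8 genes themselves from 0.022 for Idh3g to 0.13 for Scsalpha1. With 4 libraries, such likeness is a description only.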

How the data were processed

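RNA-seq of fly gut was deposited as 1 table of RPKM values, which the authors scaled to gene length and library total. STAR 2.5.2b, DESeq2 and the build dm6 appear in the submitters' processing notes, without their roles; for the annotation, the counting program and its strand setting, the sources used here give nothing. Of the table's columns, 0 were left out; each was assigned to its diet by name. Exon lengths and positions came from the Ensembl 115 annotation of BDGP6 (dm6 coordinates). Read totals were recovered as the divisor that makes RPKM times exon length whole: below 20 reads, 84.6% to 85.5% of values then lay within 0.02 of a whole number. Of the 32 values of the 8 genes, 9 did, so their reads are approximate.

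The test was limma 3.58.1 (R 4.3.3) on log2(RPKM + 1) for genes with a mean of at least 1 RPKM, with a trended prior variance (2.58 prior and 2 residual degrees of freedom), 2-sided, adjusted by Benjamini-Hochberg over 7556 genes at a threshold of 0.05. Fold changes understate the change of low genes. It was checked on simulated data. The genes and lists were chosen with earlier results of these data known; the complex I list was added later by symbol. Named were all 8 genes, the tested members of the related lists, up to 3 members with the smallest p of each other list, and the 5 nearest genes; other genes appear as markers of tissue or as neighbours that share exons. Outside this rule, mAcon2 and Gapdh1 were named after their values were seen. Alternatives were pseudocounts of 0.1 and 5, no filter or 5 RPKM, median, quantile and trimmed mean scaling, an exon length correction, no trend, robust empirical Bayes, voom on recovered reads, a block for the library letters, and leaving out each library.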

Additional observations from a re-analysis of the deposited data

How the results depend on the processing

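Under the 12 settings with all libraries, 8 of 8 cycle genes stayed higher without manganese, with a median log2 fold change between 0.15 and 0.20. Leaving out 1 library gave 6 to 8 genes higher and a median between 0.08 and 0.33. Of the 128 values of single genes, 126 were above 0. The 2 below 0 came without the no-manganese library C: with 1 library left out, Idh3b ran from -0.022 to 0.26 and Scsalpha1 from -0.073 to 0.37. None of the 128 passed an adjusted p of 0.05 (limma). Over all genes, leaving out 1 library gave 0 to 10 genes higher and 0 to 1 lower at that threshold: 10 higher and 1 lower without the no-manganese library B, and 5 higher without the no-manganese library C. The other settings gave 0.

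The labels do not say that equal letters mark paired libraries; the gaps of C over B in the diets correlated across genes at 0.34. With the letters as a replicate block, 8 of 8 genes were higher with a median of 0.20, 0 genes passed, and the smallest adjusted p over all genes was 0.0659 (limma). The counts at an unadjusted p under 0.05 were then 446 higher and 432 lower, against 218 and 223 without the block. Idh3a was the 1 cycle gene among them (unadjusted p = 0.0491, limma adjusted p = 0.43). With no filter on low values 378 genes were lower at that unadjusted level. With 2 libraries a diet, the 95% intervals of the 8 genes reached from -0.32 to 0.63, so differences of the size seen could not be resolved; counting error was smaller than the gap between the no-manganese libraries for each of the 8.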

Other observations

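Genes used as a measure of mitochondrial content resembled the 8 cycle genes in being highest, by their median, in the no-manganese library C. Where 56.4% of all tested genes were higher, 7 of the 8 content genes tested were higher and 1 was lower without manganese. They had log2 fold changes from -0.13 to 0.28, with a median of 0.17 and 0 past the test. Their median difference from the 5 ppm libraries was 0.36 in the no-manganese library C and -0.03 in library B. The outer membrane channel porin had 234 and 256 RPKM without manganese and 205 and 196 RPKM with it (0.28 ± 0.11 SE; limma, adjusted p = 0.80). The ADP/ATP carrier sesB had 799 and 955 RPKM without manganese and 720 and 723 RPKM with it, also without overlap. Phb2, a prohibitin of the inner membrane, had a log2 fold change of 0.26. In these 3 of the 8, both no-manganese libraries lay above both 5 ppm libraries, as in 21.7% of all tested genes. The opposite order held for 0 of the 8, and for 15.2% of all tested genes.

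Glycolysis genes, which supply pyruvate, lay mostly on the other side of 0. Where 56.4% of all tested genes were higher, 1 of the 11 glycolysis genes tested was higher and 10 were lower. They had a median of -0.12, and 0 passed the test. Their medians were -0.11 in the no-manganese library C and -0.14 in library B, so here the libraries of that diet lay close together. The list's median was -0.08 without the 5 ppm library B and -0.20 without the 5 ppm library C. Pgi, phosphoglucose isomerase, had 42.5 and 48.1 RPKM without manganese and 56.7 and 64.0 RPKM with it (-0.41 ± 0.12 SE; limma, adjusted p = 0.80). Pfk, phosphofructokinase, and Tpi, triosephosphate isomerase, had log2 fold changes of -0.25 and -0.22. The 1 higher member was Gapdh1 at 0.15, named after its value was seen.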
